A study of Urocitellus parryii with 3 samples.

Results

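miR-144, miR-451 and miR-486 are the miRNAs known for their abundance in red blood cells. They were followed here through 3 stages of the hibernation year in livers of arctic ground squirrels (Urocitellus parryii). The members were the entries named mmu-miR-144, mmu-miR-451 and mmu-miR-486 among the 567 mouse miRNA entries of the array, and all 3 were found. Late torpor is the cold, inactive state of the hibernating animal, early arousal is the start of its rewarming, and post-reproduction falls in the active months. Liver RNA of animals at 1 stage was mixed in equal amounts into 1 pool, labelled with Cy3 and put on 1 array with probes for mouse miRNAs. How many animals went into a pool, and their age, sex and genotype, are not given in the sources used here. With 1 array per stage there is no replicate check, and no test between stages was possible. The standard errors (SE) and 95% intervals below come from repeated spots on an array and cover spot spread only.

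A single primary transcript gives rise to miR-144 and miR-451, and the erythroid transcription factor GATA1 switches it on as red cells mature. miR-451 is unusual because its precursor is cut by the Argonaute protein Ago2 without Dicer. miR-451 is also known for protecting red cells from oxidative stress. miR-486 lies in an intron of Ank1, the gene of the red cell membrane protein ankyrin, and is also made in striated muscle. Since mature red cells keep these miRNAs, blood left in a tissue adds to their level. In RNA from whole tissue, the number of red cells in the sample and the amount of each miRNA per cell cannot be told apart.

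The arrays carry 2 probes for each member, which differ by 1 base in the length of the stretch they read. On the mouse genome (mm9, per the array files) the longer target of miR-144 lies at chr11:77886549-77886568 and that of miR-451 at chr11:77886688-77886709, next to each other. The longer target of miR-486 lies at chr8:24253067-24253080. The 2 targets of miR-144 are 19 and 20 bases long, those of miR-451 21 and 22, and those of miR-486 only 13 and 14. The probes follow the mouse, so the values compare stages and do not give absolute amounts in the squirrel.

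As a check of the tissue, miR-122, the main miRNA of hepatocytes, gave 37937 intensity units in late torpor, 33094 in early arousal and 34109 in post-reproduction. Between 143 and 158 mouse miRNAs were detected per array, and 135 were measured on all 3 (detected with at least 1 common probe). The median negative control spot lay at 1.21 to 1.69 units. The dimmest spot marked well above background had 8.49 to 10.7 units, and the brightest probe for a viral miRNA, which stands for unspecific signal, had 22.2 to 26.6. Every kept spot of the 3 members was marked well above background on every array, and none was saturated.

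miR-451 had a graded level, highest in late torpor and lowest in post-reproduction. Its first probe had a median of 2170 units over 9 spots in late torpor (lowest 2055, highest 2235), 1315 over 9 spots in early arousal (1243 to 1382) and 1049 over 10 spots in post-reproduction (929 to 1084). The second probe had medians of 3905 (3722 to 4222, 10 spots), 2392 (2341 to 2457, 8 spots) and 1908 (1753 to 1988, 10 spots) in the same order. In both probes the 3 arrays followed each other without any overlap of spots. The geometric mean over both probes was 2898 units in late torpor, 1777 in early arousal and 1399 in post-reproduction.

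miR-486 had the same order. Its first probe had a median of 141 units in late torpor (132 to 163, 10 spots), 84.4 in early arousal (77.3 to 90.8, 10 spots) and 65.6 in post-reproduction (59.4 to 72.0, 10 spots). The second probe had medians of 84.3 (82.2 to 88.3, 8 spots), 51.1 (47.1 to 54.1, 10 spots) and 39.0 (33.7 to 44.2, 10 spots). Again no spot of one array reached into the range of the next in either probe. The geometric means were 110.1, 65.4 and 50.6 units.

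miR-144 had 1 high array and 2 low ones. The median of its first probe was 72.5 units in late torpor (67.7 to 77.0), 30.2 in early arousal (25.4 to 33.5) and 29.5 in post-reproduction (26.5 to 31.9), with 10 spots on each. The second probe had medians of 82.6 (71.9 to 87.9, 10 spots), 33.5 (29.1 to 40.9, 10 spots) and 33.5 (29.8 to 37.6, 9 spots). The late torpor spots lay far above the others, while the spots of early arousal and post-reproduction overlapped in both probes. The geometric means were 76.4, 31.2 and 31.3 units, so the 2 low arrays are level on the deposited scale. The brightest viral probe had 22.2 units in early arousal and 26.6 in post-reproduction.

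**Figure D1:**
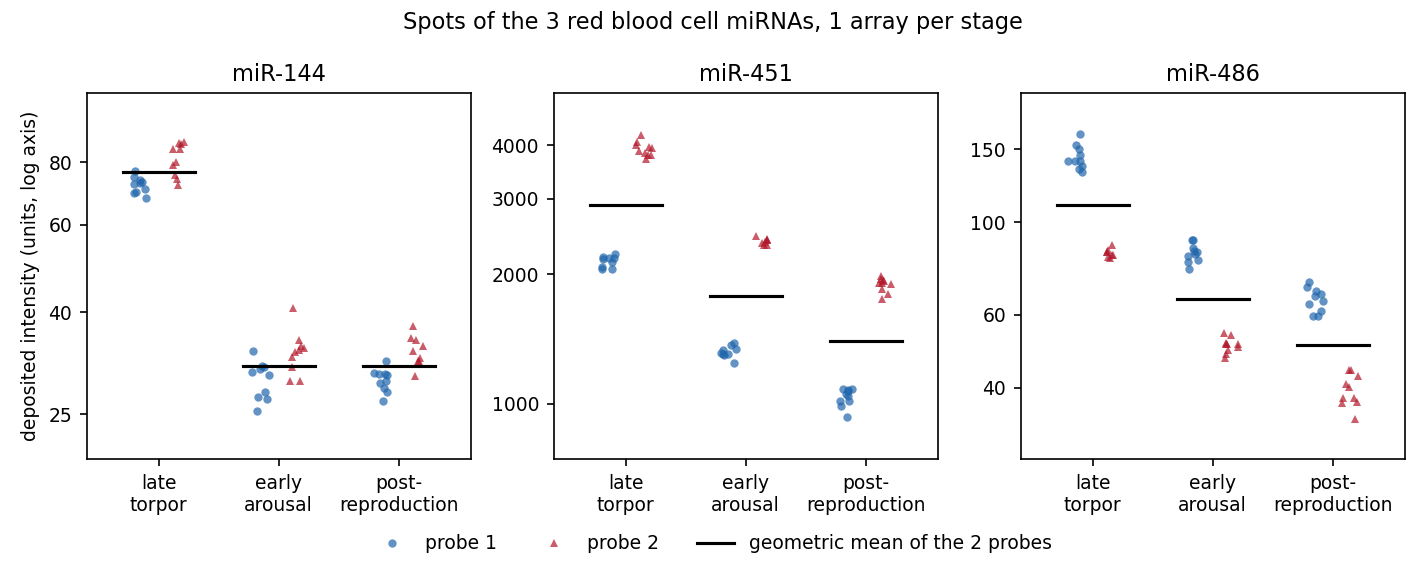
Deposited intensity (log axis) of each kept spot of miR-144, miR-451 and miR-486 on the 3 arrays, with the first probe as circles, the second as triangles and the geometric mean of both as a bar. miR-451 and miR-486 step down from late torpor through early arousal to post-reproduction, and miR-144 drops from 76.4 units in late torpor to 31.2 and 31.3.

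To set the arrays side by side, the value of each array at the 75th percentile of its 250 commonly detected probes (349 to 398 units) was taken as 1. A rule of size asked for a scaled difference of at least 2-fold (1 on the log2 scale) that exceeded 2 SE and pointed the same way in all measured probes of the miRNA. The comparisons share arrays, so they are not independent of one another.

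The first comparison asked how late torpor differs from the season without hibernation. All 3 members were higher in late torpor and passed the rule, against 2.22% of all 135 measured miRNAs, a share made up of these 3 alone. The fold was 2.79 for miR-144 (95% interval 2.68 to 2.90), 2.48 for miR-486 (2.38 to 2.58) and 2.36 for miR-451 (2.31 to 2.42). They took the first 3 places in the order of the 135 differences, in the order miR-144, miR-486 and miR-451. The median of the members was 1.31 on the log2 scale, and that of all measured miRNAs was 0.13. Non-overlapping spots in every probe, higher in late torpor, were seen for all 3 members and for 27.4% of all measured miRNAs. The 2 probes of a member gave nearly the same difference, 1.49 and 1.47 for miR-144, 1.24 and 1.24 for miR-451, and 1.33 and 1.29 for miR-486.

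Each of the 3 calls was lost under some other processing, always with the same sign. miR-144 (0.75) and miR-486 (0.80) fell short with normexp background correction and an offset of 50. miR-451 fell short after quantile normalization (0.83), with arrays centred on hepatocyte miRNAs (0.97) and with the scanner program's total signal (0.93). With scaling on all probes without a floor, a setting chosen after the data were examined, miR-451 (0.85) and miR-486 (0.92) fell short, and the split of all measured miRNAs past the rule was 1 higher and 6 lower in place of 3 and 0. The split was 3 and 1 without scaling and after scaling on the median or on all probes, and 2 and 2 with arrays centred on hepatocyte miRNAs.

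The second comparison set early arousal against post-reproduction, and here the members parted. miR-486 was 1.47-fold higher in early arousal (1.41 to 1.53) and miR-451 1.44-fold (1.41 to 1.48). miR-144 differed by only 0.18 ± 0.04 (SE) on the log2 scale. The members' median was 0.53, against 0.062 for all measured miRNAs. None of the 3 passed the rule, which 2.96% of the measured miRNAs passed as higher and 0.741% as lower. Those were miR-709, miR-1224, miR-494 and miR-452 (higher) and miR-378 (lower). miR-486 stood at place 11 and miR-451 at place 12 of 135 from the highest, and miR-144 at place 49. Spots did not overlap in either probe for miR-451 and miR-486, as for 24.4% of all measured miRNAs, and did overlap for miR-144. The sign of the miR-144 difference turned under several settings, from -0.19 with all probes in the scaling to -0.0030 with the unsubstituted form, so that neither stage can be called higher. miR-451 and miR-486 stayed higher in early arousal under all 14 other settings that give a difference, from 0.16 to 0.57 for miR-451 and from 0.18 to 0.59 for miR-486. The split of 4 higher and 1 lower over all measured miRNAs became 2 and 8 with all probes in the scaling, 3 and 3 without scaling, with hepatocyte centring and with the unsubstituted scaling, and 4 and 2 after quantile normalization.

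The third comparison lay within hibernation and set early arousal against late torpor, each from its own pool of animals. All 3 members were lower in early arousal. miR-144 was 2.46-fold lower (2.35 to 2.58) and passed the rule, as did 1.48% of the measured miRNAs in that direction, the other one being miR-500. miR-500 was dim, with scaled log2 levels of -3.64 in late torpor and -4.89 in early arousal. miR-144 had the lowest of all 135 differences, at -1.30 ± 0.04. miR-486 was 1.69-fold lower (1.64 to 1.74) and miR-451 1.64-fold (1.61 to 1.67), places 5 and 6 from the lowest, and neither passed the rule. Spots did not overlap in either probe for any member, as for 18.5% of all measured miRNAs in this direction. The members' median was -0.76, against -0.094 for all measured miRNAs. With the offset of 50 miR-144 fell short of the rule (-0.60), and with all probes in the scaling miR-486 passed it as well (-1.01). In the other direction miR-709 and miR-1224 passed, also 1.48%, and neither did with all probes in the scaling, where 5 miRNAs were lower.

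**Figure D2:**
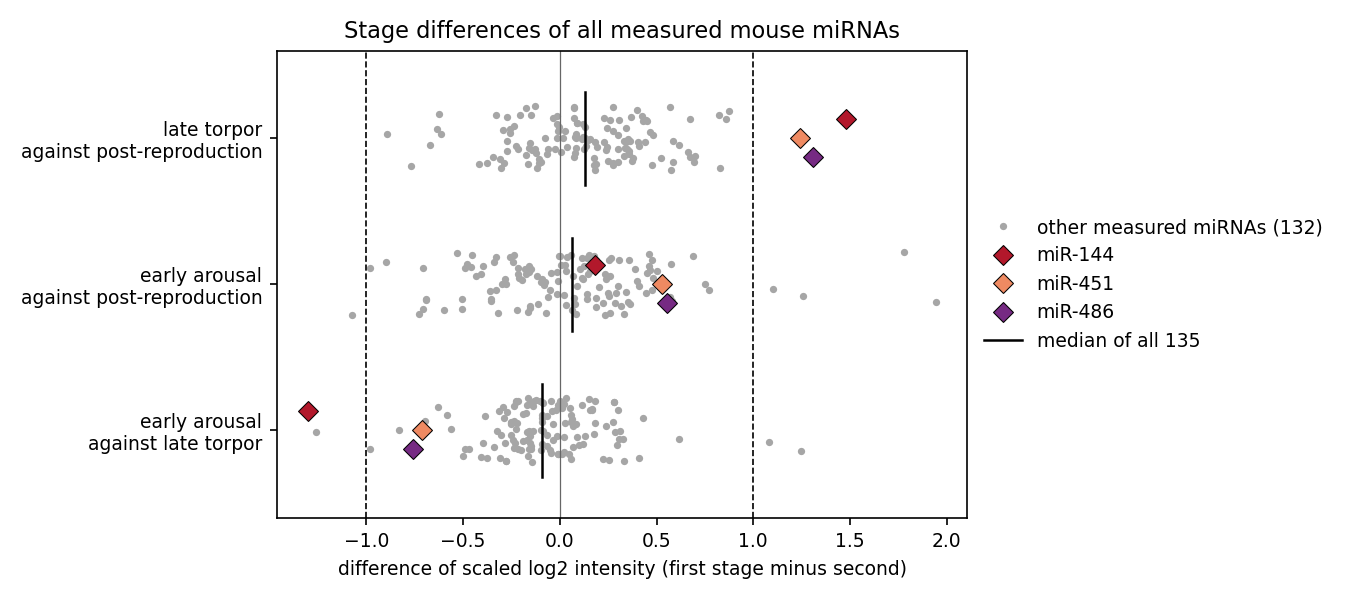
Difference of scaled log2 intensity (first stage minus second) of every measured miRNA in each comparison, with the 3 members as diamonds, the other 132 miRNAs as grey points, the median of all 135 as a bar and 2-fold as dashed lines. In late torpor against post-reproduction the members lie past 2-fold, above all other miRNAs, and in early arousal against late torpor miR-144 lies lowest.

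A change of 1 miRNA against another on the same array is free of every array scaling tried except quantile normalization, which moves miRNAs of different levels by different amounts. On the main setting miR-451 and miR-486 changed nearly alike in every comparison, apart by -0.070 ± 0.04, -0.024 ± 0.03 and 0.046 ± 0.03 on the log2 scale for late torpor against post-reproduction, early arousal against post-reproduction and early arousal against late torpor. In late torpor against post-reproduction they were apart by 0.38 with normexp and the offset of 50 and, with the sign turned, by -0.34 after quantile normalization. From late torpor to early arousal these settings gave -0.24 and 0.26. miR-144 changed more than its cluster partner miR-451 from late torpor to early arousal, by -0.59 ± 0.04. It was also higher than miR-451 relative to post-reproduction in late torpor (0.24 ± 0.03) and lower in early arousal (-0.35 ± 0.04). Normexp with the offset of 50 turned the signs of the first and second of these values. The change between arousal and torpor was then 0.085 and that of late torpor against post-reproduction -0.43. Without the offset they were -0.42 and 0.052, and after quantile normalization -0.82 and 0.49. Under the other 6 settings the first ran from -0.60 to -0.57 and the second from 0.23 to 0.27. The value in early arousal against post-reproduction ran from -0.37 to -0.31 under all 9 alternatives.

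miR-23a, whose level in plasma is little affected by red cells, serves as the partner of miR-451 in the ratio used to detect red cell lysis in plasma. Relative to miR-23a, miR-451 was 2.82-fold higher in late torpor and 1.90-fold higher in early arousal than in post-reproduction. From late torpor to early arousal the ratio was 1.49-fold lower. miR-486 gave 2.96-fold, 1.93-fold and 1.53-fold, and miR-144 gave 3.33-fold, 1.49-fold and 2.24-fold in the same order. Part of these sizes lies in miR-23a, which was itself at -0.26 ± 0.02 and -0.40 ± 0.02 against post-reproduction. Relative to miR-122 the late torpor folds were smaller, 2.20 for miR-144, 1.95 for miR-486 and 1.86 for miR-451. miR-122 was at 0.34 ± 0.03 in that comparison, at -0.048 with the unsubstituted scaling. Relative to miR-122, miR-144 in early arousal differed from post-reproduction by 0.038 ± 0.04.

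Other miRNAs that are plentiful in red cells differed less than the members in late torpor against post-reproduction and from late torpor to early arousal, but not in early arousal against post-reproduction. Of 9 listed, miR-16, miR-25, miR-92a and miR-185 were measured, and miR-96, miR-182, miR-183, miR-210 and miR-363 were detected on no array. In late torpor against post-reproduction 3 of the 4 were higher, with a median of 0.41 and none past the rule, but 2 of 4 with the unsubstituted scaling. miR-16, which is also made in most other cells, was the highest at 0.58 ± 0.02, and miR-185 the lowest at -0.21 ± 0.07. miR-185 was dim, with scaled log2 levels of -4.18 in late torpor and -3.97 in post-reproduction. In early arousal against post-reproduction 3 of 4 were higher with a median of 0.38, but 2 of 4 with all probes in the scaling. There miR-92a was at 0.57 ± 0.03, level with miR-486 (0.55) and miR-451 (0.53), and miR-16 (0.45) and miR-25 (0.31) were above miR-144 (0.18). From late torpor to early arousal miR-92a was at 0.24 ± 0.03 (-0.0091 after scaling on all probes), the opposite side from the members, and miR-16 at -0.13 ± 0.02, which was above 0 with the median and the unsubstituted scalings.

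Leukocyte miRNAs were followed as the other blood cells in the sample. Of 9 listed, 6 were measured, and miR-146b, miR-155 and miR-342-3p were detected on no array. The summed deposited intensity of all 9 listed, unscaled and with undetected ones included, was 613 units in late torpor, 441 in early arousal and 505 in post-reproduction. That of the 3 members was 3273, 1923 and 1548, most of it from miR-451 (geometric means 2898, 1777 and 1399). In late torpor against post-reproduction 5 of 6 were higher, with a median of 0.37, but 3 of 6 with the unsubstituted scaling. The highest was miR-223, a miRNA of neutrophils and monocytes, at 0.67 ± 0.02. From late torpor to early arousal 5 of 6 were lower, with a median of -0.56, and all 6 with all probes in the scaling. The lowest there was miR-142-5p, found in all blood cell lineages, at -0.83 ± 0.06. Its scaled log2 level was dim, -3.98 in late torpor and -4.81 in early arousal, below that of miR-144 (-2.19 and -3.49). In early arousal against post-reproduction the leukocyte list had 4 of 6 lower and a median of -0.19 (5 of 6 with all probes in the scaling or hepatocyte centring), where miR-451 and miR-486 were higher. None of the leukocyte miRNAs passed the rule in any comparison, but miR-142-5p did from late torpor to early arousal (-1.08) after scaling on all probes. The part of blood content of the liver in the members' differences was not tested.

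The 4 endothelial miRNAs had medians of 0.024, -0.11 and -0.18 in the 3 comparisons in the order above. The 4 measured mesenchymal ones had 0.029, 0.024 and -0.052. These signs turned under other scalings except in the endothelial list for early arousal against post-reproduction. In late torpor against post-reproduction the endothelial miR-126-3p (0.35) and miR-126-5p (0.27) were higher, and miR-221 (-0.23) and miR-222 (-0.42) lower. Early arousal against post-reproduction had the same split, from 0.36 for miR-126-5p to -0.71 for miR-222. All 4 were lower with the unsubstituted scaling in the former and with all probes in the scaling in the latter. Of 6 miRNAs known to be lowered or to act as brakes during red cell maturation, miR-24, miR-150, miR-221, miR-222 and miR-223 were measured. Their medians were -0.067, -0.36 and -0.29, and stayed below 0 under the other scalings. In these comparisons 3, 4 and 5 of the 5 were lower. The median of -0.36 was the value of miR-150 (SE 0.12, 1 probe), a dim miRNA. Its scaled log2 levels were -5.07 in early arousal and -4.71 in post-reproduction. That of -0.29 was the value of miR-222, with levels of -3.66 in early arousal and -3.38 in late torpor. In late torpor against post-reproduction miR-223 (0.67) and miR-150 (0.34 ± 0.13) were higher, and both are also in the leukocyte list. The miR-150 difference again came from dim signals, with scaled log2 levels of -4.37 in late torpor and -4.71 in post-reproduction. None of the 5 passed the rule, but with all probes in the scaling miR-222 did in early arousal against post-reproduction (-1.08). miR-221 and miR-222 are also in the endothelial list. The 7 measured hepatocyte miRNAs had medians of 0.30, 0.16 and -0.033, with none past the rule, and each of these signs turned under at least 1 other scaling.

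Because miR-486 is also a muscle miRNA, miRNAs of striated muscle were looked up after the data were examined. miR-1, miR-133a and miR-133b were detected in late torpor, miR-1 and miR-133b in early arousal, and none in post-reproduction, while miR-206 was detected on no array. Their brightest probes had at most 21.4 units in late torpor, 10.8 in early arousal and 8.76 in post-reproduction, below the brightest viral probe on each array. The dim signals of miR-1, miR-133a and miR-133b had the same order of stages as miR-486, and their part in its difference was not tested. miR-206, at 1.52 units in late torpor and 1.54 in early arousal, did not have that order.

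**Figure D3:**
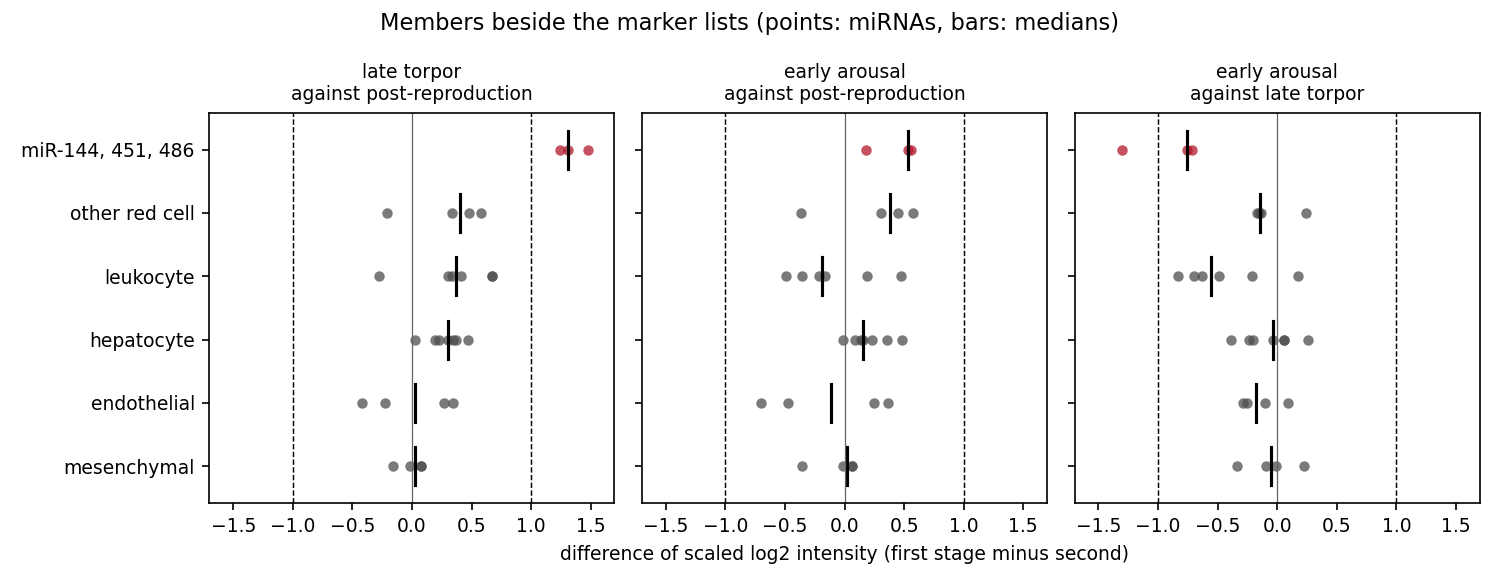
Difference of scaled log2 intensity (first stage minus second) of each measured miRNA of the members and of 5 marker lists in each comparison, with list medians as bars and 2-fold as dashed lines. In late torpor against post-reproduction the members lie between 1.24 and 1.48, and the highest value in any other list is 0.67.

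The 3-stage profile of each measured miRNA, its scaled log2 values minus their own mean, was set against the mean profile of the members (0.76 in late torpor, -0.17 in early arousal and -0.59 in post-reproduction). The measure was the Euclidean distance over the 3 arrays. The nearest other miRNAs were miR-15b (0.42), miR-223 (0.48), miR-142-5p (0.52), miR-128 (0.54) and miR-19a (0.59), with a median distance of 0.91 over all other miRNAs. The members themselves lay at 0.12 (miR-486), 0.15 (miR-451) and 0.27 (miR-144), closer in part because they make up that mean. miR-15b, of the cell cycle family that holds miR-16, had the same order of stages as miR-451 at a smaller size, with 0.88 in late torpor against post-reproduction, 0.50 in early arousal against post-reproduction and -0.37 from late torpor to early arousal. miR-142-5p, a dim miRNA, had its lowest array in early arousal (scaled log2 -4.81), where miR-451 and miR-486 had theirs in post-reproduction. miR-128 was dim too, at -3.76 in early arousal and -3.88 in post-reproduction, as was miR-19a at -3.51 and -3.80. Both lay below miR-144 (-3.49 and -3.67) on those arrays. All 5 nearest miRNAs were higher in late torpor than on both other arrays under each scaling tried. They were picked on these same arrays for nearness to a profile highest in late torpor, so this is not an independent result.

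**Figure D4:**
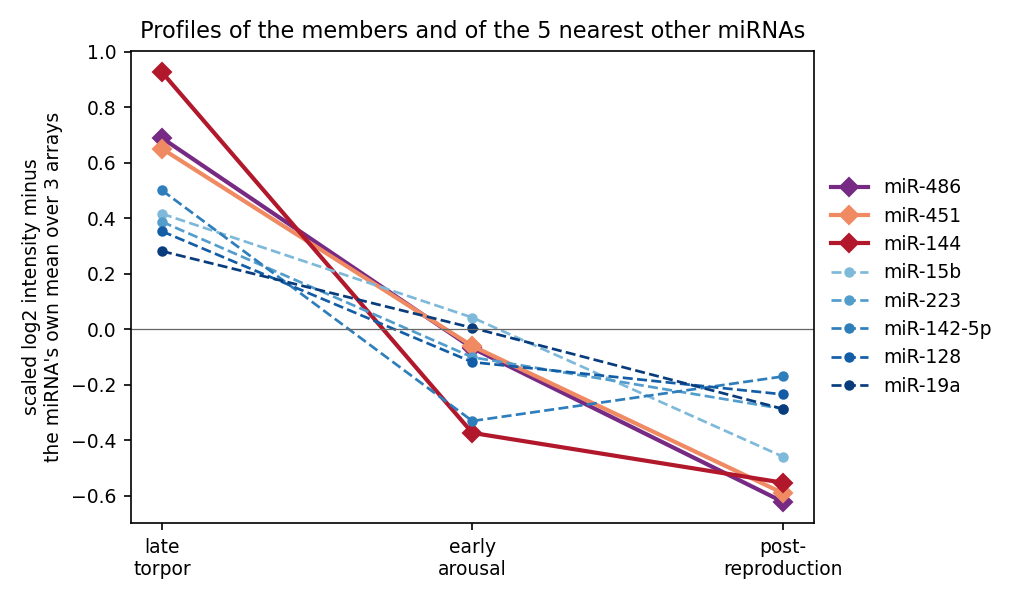
Scaled log2 intensity minus the miRNA's own mean over the 3 arrays, for the members (solid lines, diamonds) and the 5 other miRNAs nearest to their mean profile (dashed lines, circles). miR-451 and miR-486 run together, and miR-144 starts higher at 0.93 and is lower than both in early arousal at -0.37. The other 5, chosen on the same arrays for that nearness, are also highest in late torpor, with miR-142-5p lowest in early arousal.

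**Figure D5:**
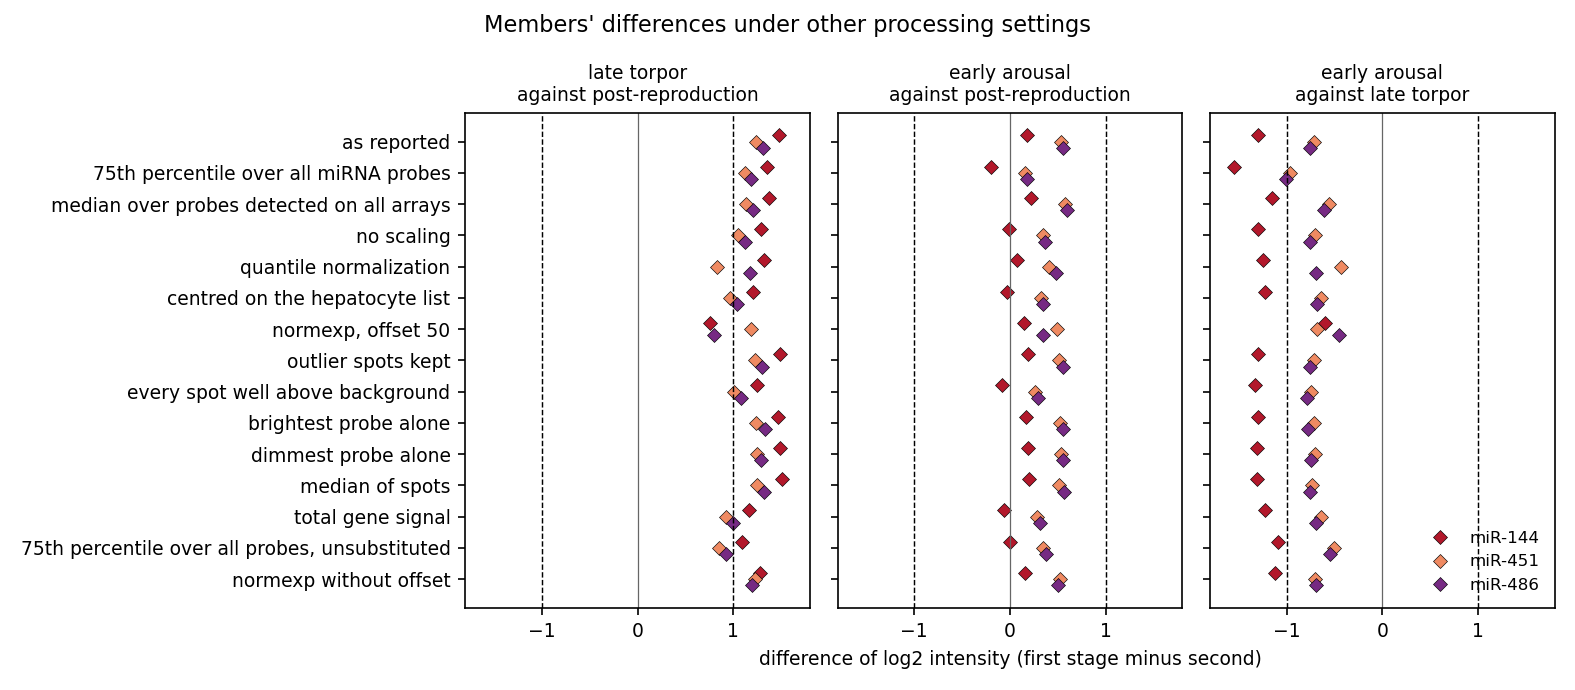
Difference of log2 intensity (first stage minus second) of each member as reported and under each of 14 other processing settings, with 2-fold as dashed lines. In late torpor against post-reproduction and in early arousal against late torpor every value keeps its sign, and in early arousal against post-reproduction miR-144 lies on both sides of 0.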

How the data were processed

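Agilent Feature Extraction 9.5.3.1 made the spot values, per the submitters' processing notes. It subtracted a fitted spatial background trend from each spot to give the deposited intensity, per the file headers, and did not scale arrays to each other. The deposited flags for outliers, saturation and spots well above background are other values of that program, per the file headers. At all 12493 spots of each array the intensity in the authors' series table equalled that of the scanner files (medians 1.05, 1.15 and 1.13 for early arousal, late torpor and post-reproduction), so it is linear and uncentred.

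Control spots and outlier spots (280 to 398 per array) were left out. Spots at or below 0, none of them in a member, were set to the dimmest spot marked well above background. The log2 intensity was averaged over spots, then over a miRNA's probes detected (over 50% of spots well above background) on all arrays. No test was made with 1 array per stage. Scripts in Python 3.11.15, and limma 3.58.1 in R 4.3.3 for normexp, were checked on simulated arrays. The members and lists were chosen with earlier results of these data known. Named were the members, fixed marker miRNAs, each list's extremes where they bear on the members, non-members past the rule and the 5 nearest profiles. There were 15 alternatives, 2 of them chosen after the data were examined.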

Additional observations from a re-analysis of the deposited data

How the results depend on the processing

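No paired analysis was possible because each stage is 1 array. Signal over background limits miR-144 most. With normexp and an offset of 50, which adds the same amount to every spot and so shrinks dim folds, the members' median in late torpor against post-reproduction was 0.80, 1 member passed the rule there and 0 in early arousal against late torpor, and the median member relative to the hepatocyte list was at 0.56 (0.96 without the offset). With the unsubstituted all-probe scaling that first median was 0.92 and 1 member passed. With all probes in the scaling the median in early arousal against late torpor was -1.01 and 2 members passed, and at 1.5-fold 3 did. With the dimmest probe the median member relative to miR-122 in late torpor against post-reproduction was 1.04 in place of 0.97, and after quantile normalization 1.17. For miR-144 in early arousal against post-reproduction the sign turned with all probes in the scaling (-0.19), without scaling (-0.0056), with hepatocyte centring (-0.026), with only probes whose every spot was well above background (-0.086), with the total signal (-0.060) and with the unsubstituted scaling (-0.0030). No other difference of a member changed sign. The median of all measured miRNAs moved with the scaling, from -0.26 to 0.13 in late torpor against post-reproduction, from -0.31 to 0.10 in early arousal against post-reproduction and from -0.34 to 0.12 in early arousal against late torpor. Counts over all measured miRNAs past the rule also moved: at 1.5-fold they were 14 higher and 6 lower, 7 and 9, and 3 and 8 in the 3 comparisons, and with the offset of 50 they were 1 and 0, 2 and 0, and 0 and 0. Other settings moved single counts between 0 and 8.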
